A study of Mus musculus with 16 samples.

Results

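Malat1, Neat1, Miat, Meg3, Rian, Mirg and Tug1 are long noncoding RNAs that are kept largely in the nucleus and are well known in brain. They were taken from the hippocampal transcript table by gene name, so every transcript row carrying one of these 7 names was used, which gave 44 transcripts of 80137 and 7 gene names of 18287. RNA came from both hippocampi, pooled within a mouse, of 16 male wild type C57BL/6 mice aged 3 months, with 1 library per mouse and 4 mice in each of 4 groups. The homecage group (HC) was left unshocked and untested and, according to the paper, was not handled either. The control group (Ctrl) was handled and was placed in the shuttle box without shocks on the day before the test. It was then tested in 30 trials of escapable shock at 0.4 mA without having been shocked before. Ctrl vs. HC therefore covers handling, the box and the test together. The other 8 mice were first given 180 inescapable shocks of 0.4 mA and then, after 24 h, the same 30 trials. Mice so treated were classed by their escape failures and latencies as learned helpless (LH) or as non-learned helpless (NLH), and 4 of each class were sequenced. The inescapable session was the same for both, but a shock of the test ended on escape, so mice that failed more often received more shock in the test. Tissue was taken 3 h after the test.

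Some of these RNAs build nuclear bodies. Malat1 gathers in nuclear speckles, which store splicing factors. Neat1 is the scaffold of paraspeckles, and only its long form assembles them, while the short form shares the 5′ end of the long one. Miat, also called Gomafu, marks a subset of neuronal nuclei and carries a repeated motif that resembles the intron branch point and binds the splicing factor SF1. Meg3, Rian and Mirg are transcribed from the maternal copy of the imprinted Dlk1-Dio3 region. Meg3 is known for its contact with Polycomb repressive complex 2, Rian is a host of small nucleolar RNAs, and Mirg is the host of a large microRNA cluster. Tug1 was first described in the developing retina and is also known for binding Polycomb repressive complex 2.

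The positions below are those of GENCODE vM21 on GRCm38, the assembly also called mm10. Malat1 (ENSMUSG00000092341.3) lies at chr19:5795690-5802672 and Neat1 (ENSMUSG00000092274.3) at chr19:5824708-5845478, both on the minus strand. Miat (ENSMUSG00000097767.8) lies at chr5:112213228-112229395, minus strand. Meg3 (ENSMUSG00000021268.17) lies at chr12:109541001-109571726, Rian (ENSMUSG00000097451.10) at chr12:109603940-109661716 and Mirg (ENSMUSG00000097391.8) at chr12:109729764-109749460, all on the plus strand. RefSeq places 1 microRNA hairpin in the span of Meg3, 3 in that of Rian and 14 in that of Mirg, on the same strand. Tug1 (ENSMUSG00000056579.18) lies at chr11:3639785-3649673, minus strand, and is classed as antisense to another gene, so without a stated strand protocol reads from both strands cannot be told apart where they overlap.

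The table held only transcripts of more than 1 exon for these genes. The annotated transcript that covers the whole of Malat1 as 1 exon of 6983 bases, and the long form of Neat1, 1 exon of 20771 bases, had no row. Malat1 was therefore measured through 3 transcripts of 2 exons each. One of them, ENSMUST00000173499.1 (485 bases), lies at the 5′ end of the gene. The others, ENSMUST00000173314.1 (556 bases) and ENSMUST00000174808.1 (656 bases), lie at its 3′ end and share their last exon. Their exon junctions are shown because they are what sets these transcripts apart from the unspliced gene. Lower case is the end of the upstream exon and capitals are the start of the downstream exon, 5′ to 3′.
ENSMUST00000173499.1, intron chr19:5801967-5802237: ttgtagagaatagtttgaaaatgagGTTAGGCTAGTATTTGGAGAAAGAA
ENSMUST00000173314.1, intron chr19:5795786-5797003: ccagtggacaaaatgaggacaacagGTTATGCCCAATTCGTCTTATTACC
ENSMUST00000174808.1, intron chr19:5795786-5796388: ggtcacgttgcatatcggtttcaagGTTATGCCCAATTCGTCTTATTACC

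Tug1 was measured through 3 transcripts. The junction that only ENSMUST00000144852.1 had joins a first exon upstream of the other starts. The second junction below was shared by ENSMUST00000144852.1 and ENSMUST00000153313.8 and was absent from ENSMUST00000132077.2.
ENSMUST00000144852.1, intron chr11:3647079-3648752: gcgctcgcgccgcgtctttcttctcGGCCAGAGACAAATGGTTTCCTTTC
ENSMUST00000144852.1 and ENSMUST00000153313.8, intron chr11:3643180-3644771: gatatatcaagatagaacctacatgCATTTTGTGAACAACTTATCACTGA

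Miat carries the motif TACTAAC, which was counted on the RNA strand of the transcript only. The main transcript, ENSMUST00000181535.8 (8758 bases), held it 6 times. Of all 141767 annotated transcripts 3.598% held the motif at least once, and of the 937 transcripts between 8 and 10 kb, which are of like length, 20.1% held it. Of these 937, 0.213% held at least 6 copies, which were 2 transcripts, both of Miat, and those of other genes held at most 3. A window of 90 bases in 1 exon, bases 5137 to 5226 of the transcript, at chr5:112216762-112216851 on the minus strand, held 3 of the copies, which are in capitals.
Miat: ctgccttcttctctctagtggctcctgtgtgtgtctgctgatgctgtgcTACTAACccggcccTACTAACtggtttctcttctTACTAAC

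Expression is given in FPKM, the fragments of a transcript scaled to its length in kilobases and to the depth of the library. Levels of different genes can be compared only as far as the transcripts with a row match the RNA. The Malat1 transcript of 6983 bases had no row, so fragments of Malat1 were divided by lengths of 485 to 656 bases. Fragments per mouse, estimated as described below, had medians of 31958 for Malat1, 19215 for Meg3, 5250 for Miat and 5348 for Rian. The order below is that of FPKM. The FPKM of all transcripts of a gene name were summed. Across the 7 genes and 16 mice the summed levels spanned from 3.94 FPKM for Mirg to 2184 FPKM for Malat1. Malat1 had the highest mean of all 18287 gene names, 1751 FPKM. Meg3 was at place 60 with 122 FPKM and Rian at place 82 with 102 FPKM. Miat had a mean of 20.6 FPKM, Tug1 16.8 FPKM, Neat1 7.74 FPKM and Mirg 4.85 FPKM, and even Mirg lay above 72.3% of all gene names. Neighbours in this order that overlapped in range over the mice were Meg3 and Rian, Miat and Tug1, and Neat1 and Mirg. Meg3 exceeded Rian in 13 of 16 mice, Miat exceeded Tug1 in 11 of 16, and Neat1 exceeded Mirg in 16 of 16. This order is that of the named transcripts. With the unnamed assembled transcripts of each locus added, Mirg exceeded Neat1 in 16 of 16 mice, at means of 11.7 and 7.74 FPKM, while Meg3 exceeded Rian and Miat exceeded Tug1 in 16 of 16. Malat1 above Meg3, Rian above Miat and Tug1 above Neat1 were separated in every mouse by ranges that did not overlap.

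**Figure D1:**
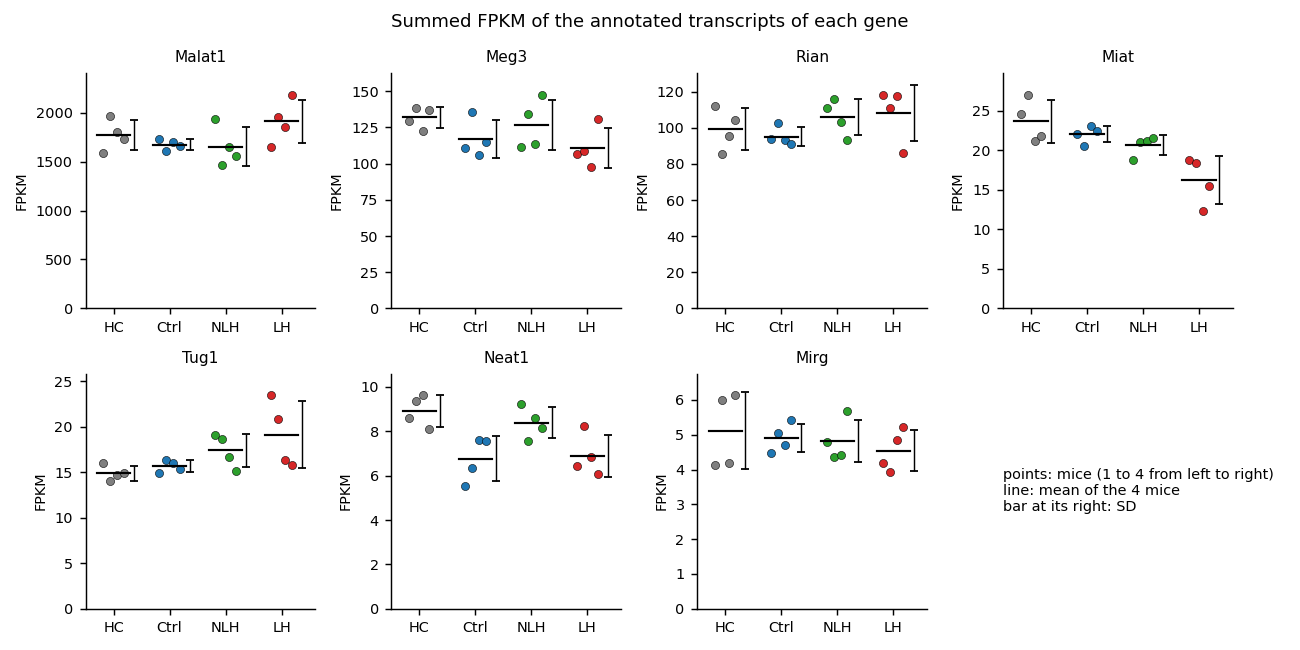
Summed FPKM of the annotated transcripts of the 7 genes (y axis, FPKM, from 0) in the HC, Ctrl, NLH and LH groups, with 1 point per mouse, a line at the mean of 4 mice and a bar for the SD. All 4 LH mice were below all Ctrl and NLH mice for Miat, and all 4 Ctrl mice were below all HC mice for Neat1, while the groups of the other genes overlapped.

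The libraries were of unequal depth. Estimated from the steps between FPKM values, depth was 20150000 to 38150000 fragments per mouse, as the smallest depth that fits the steps, and this left between 85 and 215 fragments for Mirg and between 24699 and 40237 for Malat1. LH3, with 10846 transcripts at 0, and LH4, with 15504, stood apart from the other 14 mice, which had 4872 to 7352. Differences of LH mice in the 7 genes, and in several of the transcripts described singly, are therefore also given without LH3 and LH4. All 10 markers of hippocampal neurons were measured, and their sum was 678 to 976 FPKM per mouse.

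No gene of the 7 passed the adjusted threshold of 0.05 in any of the 4 comparisons. The test was limma on log2(FPKM + 0.1) with Benjamini-Hochberg adjustment over all gene names. The threshold was passed by 0% of all gene names in Ctrl vs. HC, 0.00547% in NLH vs. Ctrl, 0% in LH vs. Ctrl, and for LH vs. NLH 0.0109%, so few genes of any kind passed it. At an unadjusted p under 0.05, limma placed 1 of the 7 in Ctrl vs. HC, 1 in NLH vs. Ctrl, 2 in LH vs. Ctrl, and 3 for LH vs. NLH, beside 2.7%, 5.59%, 11.5% and 7.54% of all gene names. The equal-variance test on FPKM gave 1, 1, 1 and 2 of the 7 at the same unadjusted limit, beside 8.5%, 9.58%, 8.03% and 3.5%. The groups did not overlap for 1, 0, 1 and 1 of the 7, beside 5.31%, 6.12%, 5.69% and 2.14% of all gene names that varied.

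The median log2 difference of the 7 genes was -0.08 in Ctrl vs. HC, 0.11 in NLH vs. Ctrl, 0.03 in LH vs. Ctrl, and -0.08 for LH vs. NLH. Over all gene names it was 0.02, 0.06, 0.00 and -0.06. In Ctrl vs. HC 6 of the 7 means were lower and that of Tug1 was higher, and in the other comparisons the 7 means were divided 4 to 3. The genes thus did not share 1 direction in any of the 4. Without LH3 and LH4 the 7 differences in LH vs. Ctrl were 0.10 for Malat1, -0.24 for Miat, -0.11 for Meg3, 0.12 for Neat1, 0.50 for Tug1, 0.27 for Rian and -0.27 for Mirg. In LH vs. NLH they were then 0.13, -0.15, -0.23, -0.20, 0.35, 0.12 and -0.23 in the same order. The median over all gene names moved upward too with these mice left out, to 0.19 against Ctrl mice and 0.13 against NLH mice. Against Ctrl mice only Tug1 and Rian lay above this median, and Malat1 and Neat1 lay below it despite their positive values. The part of this common shift in each difference was not tested.

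**Figure D2:**
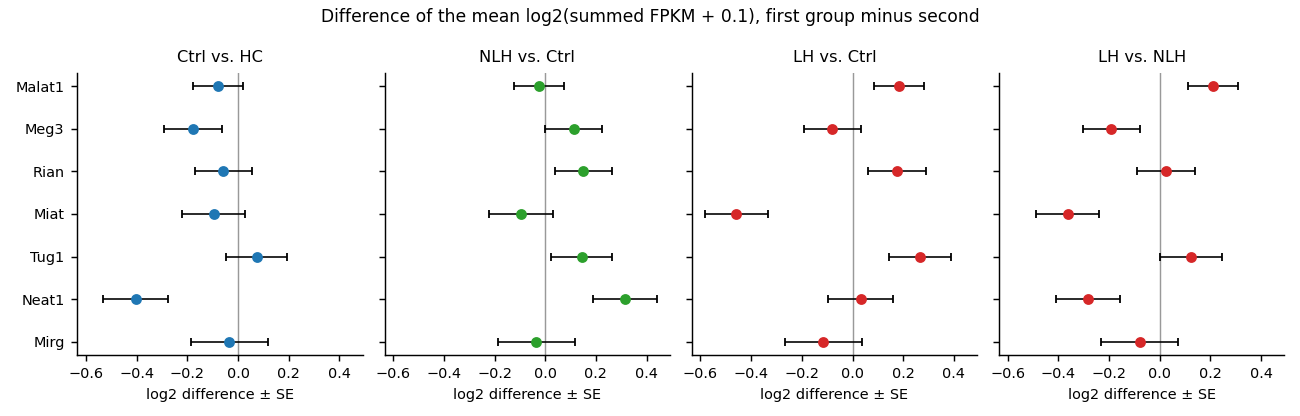
Difference of the mean log2(summed FPKM + 0.1) between groups for each gene (x axis, log2 difference, first named group minus second), with bars for the standard error from limma, in the 4 comparisons. Miat lay at -0.46 in LH vs. Ctrl and at -0.36 against NLH, and Neat1 lay at -0.40 in Ctrl vs. HC.

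With all LH mice Miat had the largest difference of the 7 in both comparisons with LH mice. Without LH3 and LH4 that of Tug1 was the largest in both, where the median over all gene names was also higher. The summed level of Miat was 24.6, 27.0, 21.2 and 21.8 FPKM in HC mice 1 to 4, and 22.02, 20.6, 23.1 and 22.5 FPKM in Ctrl mice. It was 18.82, 21.1, 21.1 and 21.5 FPKM in NLH mice, and 18.79, 18.4, 12.3 and 15.4 FPKM in LH mice. The 4 LH values were all below the 4 Ctrl values and all below the 4 NLH values, though NLH1 lay just above LH1. With the unnamed transcripts of the Miat locus added, NLH1, at 26.5 FPKM, lay below LH1, at 26.6 FPKM, so LH and NLH mice then overlapped (exact permutation p = 0.0571), while LH mice, at 23.1 to 26.6 FPKM, stayed below the Ctrl mice, at 31.1 to 34.99 FPKM. The mean was 16.2 ± 3.05 FPKM (SD, n = 4) in LH mice against 22.04 ± 1.06 in Ctrl mice and 20.6 ± 1.23 in NLH mice. The log2 difference was -0.46 (SE 0.12) in LH vs. Ctrl, with a limma p of 0.00203 and an adjusted p of 0.168. It was -0.36 (SE 0.12) in LH vs. NLH, with a limma p of 0.0102 and an adjusted p of 0.526. On leaving out 1 mouse at a time they were -0.54 to -0.33 and -0.44 to -0.24, nearest to 0 without LH3 in both. The exact permutation test gave p = 0.0286, two-sided, in both, the smallest that 4 mice against 4 allow. In whole tissue, fewer cells of a type and less of the RNA per cell cannot be told apart.

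The difference was smaller without the 2 LH libraries that stood apart, but the typical gene moved upward as well. Without LH3 and LH4, Miat lay at -0.24 (SE 0.10) in LH vs. Ctrl, with a limma p of 0.0284 and an adjusted p of 0.152, and at -0.15 (SE 0.10) in LH vs. NLH, with a limma p of 0.162. The medians over all gene names were then 0.19 and 0.13, against 0.00 and -0.06 with all LH mice. The smaller difference of Miat therefore cannot be told apart from this common shift. With median-ratio size factors, which rescale each library by its typical transcript, the differences were -0.38 and -0.24. The exact p was then 0.0571 and 0.114. The sum of the 4 measured endothelial markers was also higher in LH mice, 13.7 to 22.4 FPKM against 10.8 to 13.1 FPKM in Ctrl mice, none of them being at 0 in all mice. The sum was 13.2 to 17.3 FPKM in NLH and 12.7 to 14.3 FPKM in HC mice, so LH mice overlapped with both, and NLH mice too were above all Ctrl mice. One marker of the list, Pecam1, had a lower mean in LH mice, 1.44 ± 0.409 FPKM (SD, n = 4) against 1.66 ± 0.168 in Ctrl and 1.95 ± 0.254 in NLH mice. The part of these markers in the Miat result was not tested.

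The lower level of Miat in LH mice was found in its main transcript. ENSMUST00000181535.8, the 7-exon RNA with the TACTAAC copies, held 82.9% of the summed FPKM of Miat and 95.0% of its fragments. It was 18.2, 18.6, 18.8 and 19.6 FPKM in HC mice and 17.6, 19.3, 17.3 and 18.2 FPKM in Ctrl mice. It was 16.3, 17.9, 18.8 and 17.1 FPKM in NLH mice and 14.9, 15.6, 11.04 and 14.6 FPKM in LH mice. The LH values were below all values of the other groups. The log2 difference was -0.38 (SE 0.10) in LH vs. Ctrl, with a limma p of 0.00181 and an adjusted p over all transcripts of 0.194, and -0.33 (SE 0.10) in LH vs. NLH, with an adjusted p of 0.377. Without LH3 and LH4 it was -0.25 (SE 0.07) and -0.20 (SE 0.07). Its share of the gene had a mean of 87.1% in LH and 82.3% in Ctrl mice (exact permutation p = 0.4). The other transcript above 10% of the sum, ENSMUST00000183036.1, a short RNA of 357 bases, ranged from 0 to 6.79 FPKM over the 16 mice and was listed at 0 in LH3 and LH4.

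**Figure D3:**
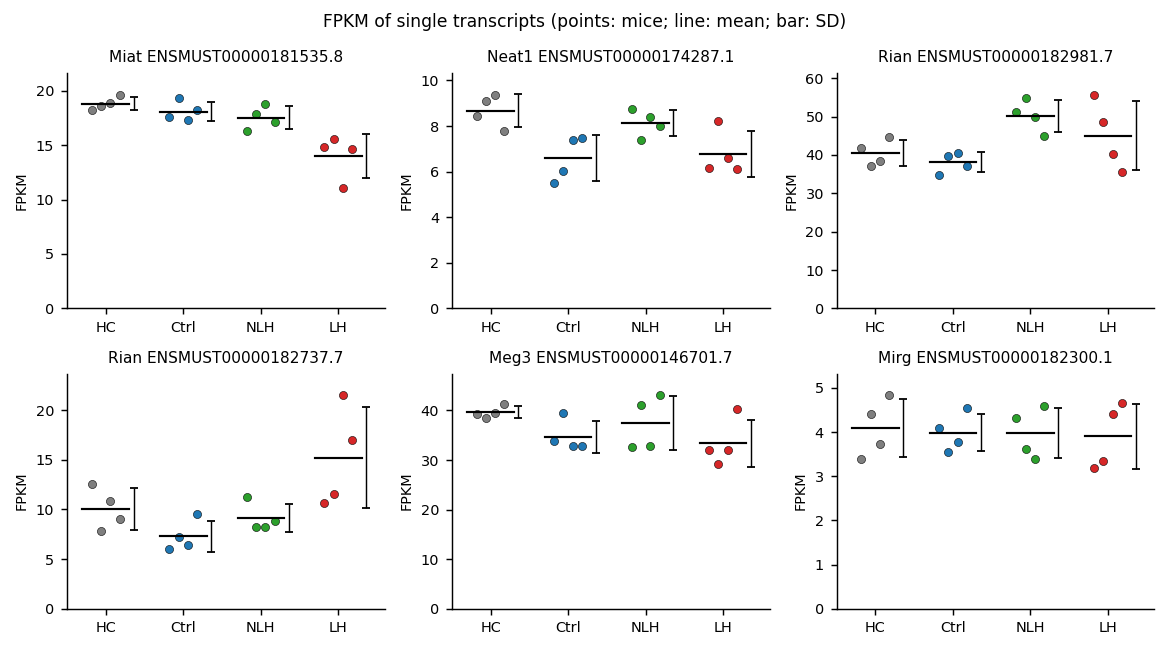
FPKM (y axis, from 0) of 6 transcripts in the HC, Ctrl, NLH and LH groups, with 1 point per mouse, a line at the mean of 4 mice and a bar for the SD. The main Miat transcript was 11.04 to 15.6 FPKM in LH mice against 16.3 to 19.6 FPKM in the other 12 mice, and Rian ENSMUST00000182737.7 reached 21.5 FPKM in LH3.

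Neat1, the paraspeckle RNA, had its largest difference in Ctrl vs. HC. Its summed level was 8.60, 9.36, 9.64 and 8.09 FPKM in HC mice, and 5.52, 6.35, 7.62 and 7.56 FPKM in Ctrl mice. In NLH mice it was 9.21, 7.56, 8.60 and 8.14 FPKM, and in LH mice 6.43, 8.23, 6.84 and 6.10 FPKM. All Ctrl values were below all HC values. NLH mice overlapped with HC mice and LH mice overlapped with Ctrl mice. NLH mice also overlapped with Ctrl mice, and LH mice with both HC and NLH mice. The mean was 6.76 ± 1.01 FPKM (SD, n = 4) in Ctrl against 8.92 ± 0.709 in HC mice, a log2 difference of -0.40 (SE 0.13), with a limma p of 0.00563, an adjusted p of 1 and an exact permutation p of 0.0286. In NLH vs. Ctrl the log2 difference was 0.31 (SE 0.13), with a limma p of 0.0246 and an adjusted p of 0.767, and in LH vs. NLH it was -0.28 (SE 0.13), with a limma p of 0.0404 and an adjusted p of 0.638. The corresponding exact permutation p-values were 0.0571 and 0.0857. Ctrl mice enter both of the first comparisons, so these are not independent. In LH vs. Ctrl the difference was 0.03 (SE 0.13).

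These values concern the 5′ end of Neat1 only. ENSMUST00000174287.1, a spliced RNA of 3004 bases, held 97.5% of the Neat1 sum, and ENSMUST00000174829.1, of 1030 bases, held 2.54%. Between 369 and 936 fragments per mouse stood behind the sum. The long form that assembles paraspeckles was not analysed here.

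Malat1, the speckle RNA, did not separate the groups by its sum. The sums were 1589, 1965, 1798 and 1728 FPKM in HC mice, 1730, 1606, 1700 and 1656 FPKM in Ctrl mice, 1931, 1465, 1646 and 1561 FPKM in NLH mice, and 1653, 1956, 1849 and 2184 FPKM in LH mice. The groups overlapped in each comparison. The mean of LH mice, 1910 ± 221 FPKM (SD, n = 4), was above that of NLH mice, 1651 ± 201 FPKM, by a log2 difference of 0.21 (SE 0.10), with a limma p of 0.0477, an adjusted p of 0.66 and an exact permutation p of 0.114.

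The transcripts behind the Malat1 sum differed between mice far more than the sum did. The 5′ transcript ENSMUST00000173499.1 is described although it held 9.91% of the sum, under the 10% set for describing a transcript, and was picked after its values were seen. It was at 661 FPKM in NLH1, 502 FPKM in LH1, 740 FPKM in LH3 and 874 FPKM in LH4. In the other 12 mice, all HC and Ctrl mice among them, it was at most 1.4e-05 FPKM, which is written as 0 here. It made up 34.2% of the Malat1 sum in NLH1, 30.3% in LH1, 40.0% in LH3 and 40.0% in LH4. The transcript was thus either near 0 or a large part of the sum, and it was listed above 0.1 FPKM in 3 of 4 LH mice, 1 of 4 NLH mice and none of the 8 HC and Ctrl mice. With values under 0.1 FPKM set to 0, the exact permutation test gave p = 0.143 for LH vs. Ctrl and p = 0.257 for LH vs. NLH. Limma gave an unadjusted p of 0.00484 and an adjusted p of 0.257 for LH vs. Ctrl. The limma p was 0.101 and the adjusted p 0.472 without LH3 and LH4, which hold 2 of the 3 LH values. Without LH2 the adjusted p was 0.0328, beside 0.387% of all transcripts past the threshold in that fit, but LH2 is the LH mouse that lacked the transcript, so every LH mouse left was high by the choice of the mouse left out.

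The same 4 mice had the 4 lowest sums of the 3′ transcripts. Malat1 without ENSMUST00000173499.1 was 1269 FPKM in NLH1, 1152 FPKM in LH1, 1109 FPKM in LH3 and 1309 FPKM in LH4. In the other 12 mice it was 1465 to 1965 FPKM. On this sum the log2 difference in LH vs. Ctrl was -0.31 (limma adjusted p = 0.403), and in LH vs. NLH it was -0.14 (limma adjusted p = 0.834), so both differences of the full sum turned in direction when the 5′ transcript was left out. ENSMUST00000173314.1, which held 41.0% of the sum, was 894 ± 105 FPKM (SD, n = 4) in HC mice and 743 ± 25.6 FPKM in Ctrl mice, and 672 ± 37.3 FPKM in NLH mice and 561 ± 118 FPKM in LH mice. Its log2 difference was -0.26 (SE 0.12) in Ctrl vs. HC, with all Ctrl values below all HC values (exact permutation p = 0.0286, limma adjusted p = 1), and -0.43 (SE 0.12) in LH vs. Ctrl, with a limma p of 0.00257 and an adjusted p of 0.212. Without LH3 and LH4 it was -0.29 (SE 0.12), with a limma p of 0.0335 and an adjusted p of 0.295, and without LH2 it was -0.55 (SE 0.09), with an adjusted p of 0.0241 and the same limit on what LH2 stands for. ENSMUST00000174808.1, which held 49.1%, ranged from 639 FPKM in LH1 to 1236 FPKM in LH2, and the groups overlapped in each comparison.

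**Figure D4:**
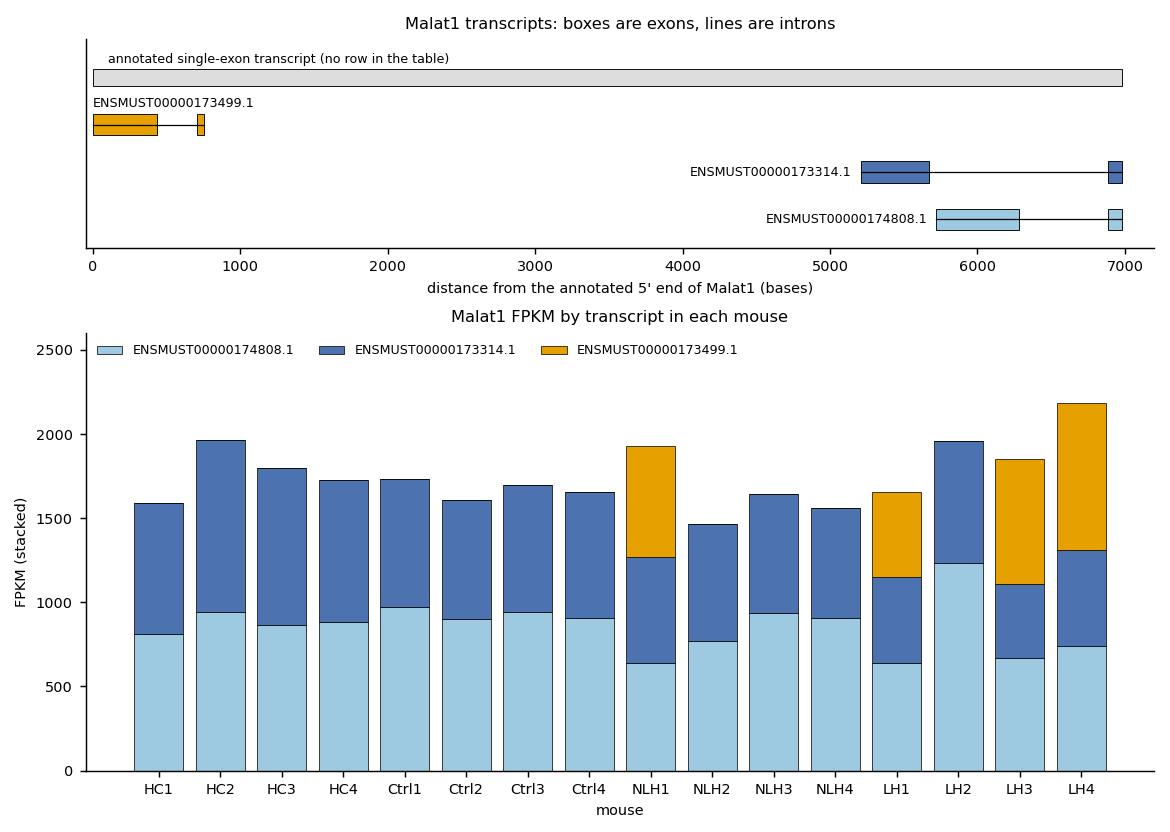
Top, the 3 measured Malat1 transcripts and the annotated single-exon transcript drawn by distance from the annotated 5′ end (x axis, bases), with boxes for exons and lines for introns. Bottom, their FPKM stacked for each of the 16 mice (y axis, FPKM), where the 5′ transcript appears in NLH1, LH1, LH3 and LH4 and lies at 0 in the other 12 mice.

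The 3 mice with the most transcripts at 0 over the whole table, LH4, LH3 and NLH1 (7352), all had the 5′ transcript, while LH2 lacked it with 6852 and LH1 had it with 6244. The part of this in the Malat1 values was not tested. The share of ENSMUST00000173314.1 within the sum of both 3′ transcripts did not overlap between HC mice, 48.7% to 52.0%, and Ctrl mice, 43.9% to 45.4% (exact permutation p = 0.0286). This comparison was made after the values were seen. Assembled transcripts without a gene name held another 28.3% of the FPKM at the Malat1 locus, and the largest of them ranged from 570 to 764 FPKM over the 16 mice. With these included the locus was 2373 ± 89.4 FPKM (SD, n = 4) in Ctrl and 2637 ± 277 FPKM in LH mice (exact permutation p = 0.114).

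Tug1 was higher in the mean of LH mice, and whether it passed the test depended on the scaling and weighting of the libraries and on LH3 and LH4. Its sum was 16.02, 14.1, 14.7 and 14.9 FPKM in HC mice, and 14.9, 16.4, 16.1 and 15.4 FPKM in Ctrl mice. It was 19.1, 18.6, 16.7 and 15.1 FPKM in NLH mice, and 23.5, 20.9, 16.4 and 15.8 FPKM in LH mice. LH1 and LH2 were above every other mouse, and LH3 and LH4 lay within the range of the Ctrl mice. The mean was 19.1 ± 3.69 FPKM (SD, n = 4) in LH against 15.7 ± 0.66 in Ctrl mice, a log2 difference of 0.27 (SE 0.12), with a limma p of 0.0432, an adjusted p of 0.411 and an exact permutation p of 0.143. In NLH vs. Ctrl the difference was 0.14 (SE 0.12) and in LH vs. NLH it was 0.12 (SE 0.12). Leaving out 1 mouse at a time gave 0.16 to 0.35 in LH vs. Ctrl and 0.018 to 0.21 against NLH, lowest without LH1 and highest without LH4 in both.

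Tug1 passed the adjusted limma threshold in LH vs. Ctrl under 3 alternatives. With median-ratio size factors the log2 difference was 0.34 (SE 0.08, adjusted p = 0.0446), and the scaled values were 13.5, 14.1, 14.2 and 13.3 in Ctrl mice and 18.8, 16.4, 16.2 and 18.7 in LH mice, without overlap (exact permutation p = 0.0286). With libraries weighted by their fit it was 0.45 (SE 0.10, adjusted p = 0.0194), and without LH3 and LH4 it was 0.50 (SE 0.10, adjusted p = 0.0229). In these fits 2.8%, 5.29% and 5.41% of all gene names passed, and 2.5%, 4.88% and 5.2% passed with a higher level in LH mice. The median log2 difference over all gene names was 0.05, 0.12 and 0.19 in the same order. Size factors moved the median of the 10436 gene names with a mean of at least 1 FPKM by 0.07 in LH vs. Ctrl and by 0.12 for LH vs. NLH on the log2 scale. LH1 and LH2, the mice highest in Tug1, also had the highest FPKM summed over all transcripts, 150826 and 158004, against 120208 to 147192 in the other 14 mice. LH2 had the highest marker sums of astrocytes, hippocampal neurons, microglia, oligodendrocytes, choroid plexus, red blood cells and striatum, and LH1 was among the highest 4 mice in each of these but oligodendrocytes. The sum of endothelial markers given above for LH and Ctrl mice stands beside this result too, and the part of all these in it was not tested.

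The Tug1 sum was shared by 3 transcripts, whose shares varied widely between mice of 1 group. ENSMUST00000153313.8 held 49.1% of the sum, ENSMUST00000144852.1, with the upstream first exon, held 35.02%, and ENSMUST00000132077.2 held 15.9%. ENSMUST00000153313.8 was 12.0 FPKM in NLH1 and 3.76, 4.54 and 3.82 FPKM in NLH2, NLH3 and NLH4. In LH mice it was 12.9, 8.43, 12.0 and 12.9 FPKM. In Ctrl mice it was 5.57, 7.77, 8.16 and 9.89 FPKM, and in HC mice 9.56, 4.75, 8.07 and 7.59 FPKM. NLH1 was far from the other NLH mice and within the range of the LH mice. ENSMUST00000144852.1 went the other way, at 3.64 FPKM in NLH1, 8.59 to 12.2 FPKM in the other 3 NLH mice, and 6.85, 9.23, 1.29 and 1.02 FPKM in LH mice. It was 2.84 to 6.50 FPKM in Ctrl and 4.12 to 7.02 FPKM in HC mice.

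**Figure D5:**
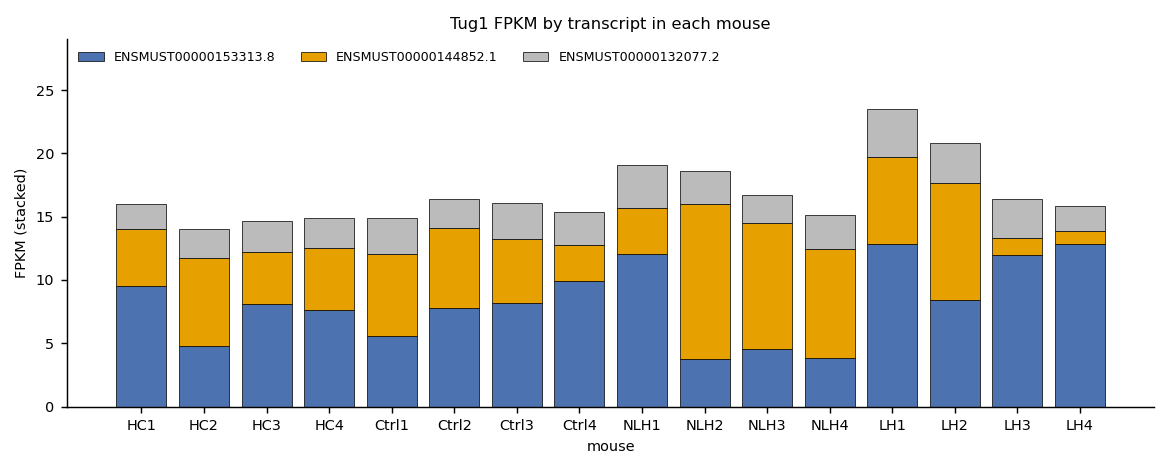
FPKM of the 3 measured Tug1 transcripts stacked for each of the 16 mice (y axis, FPKM). ENSMUST00000144852.1 makes up most of the bar in NLH2, NLH3 and NLH4 and the least in LH3 and LH4, at 1.29 and 1.02 FPKM.

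In LH vs. NLH the log2 difference of ENSMUST00000153313.8 was 1.09 (SE 0.33), with a limma p of 0.00472, an adjusted p of 0.378 and an exact permutation p of 0.0857. That of ENSMUST00000144852.1 was -1.33 (SE 0.60), with a limma p of 0.0421, an adjusted p of 0.555 and an exact permutation p of 0.2. Without NLH1 the former was 1.48 (SE 0.24), with an adjusted p of 0.0195, beside 0.302% of all transcripts past the threshold in that fit, where NLH1 was the 1 NLH mouse with a high value. Without LH3 and LH4 the difference in LH vs. NLH was 0.96 (SE 0.43, limma adjusted p = 0.432) for ENSMUST00000153313.8 and 0.016 (SE 0.43, limma adjusted p = 1) for ENSMUST00000144852.1, so the lower mean of the latter in LH mice rested on LH3 and LH4. The sum of both transcripts was 12.4 to 15.997 FPKM in NLH and 13.3 to 19.7 FPKM in LH mice. ENSMUST00000132077.2 stayed between 1.92 and 3.78 FPKM in all mice.

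Meg3, the most abundant of the imprinted RNAs, did not separate the groups. Its sum was 129, 138, 123 and 137 FPKM in HC mice, 111, 136, 106 and 115 FPKM in Ctrl mice, 111, 134, 114 and 148 FPKM in NLH mice, and 107, 109, 97.4 and 131 FPKM in LH mice. The lowest value was that of LH3 and the highest that of NLH4. In Ctrl vs. HC the log2 difference was -0.18 (SE 0.11, exact permutation p = 0.0857), and in LH vs. NLH it was -0.19 (SE 0.11, exact permutation p = 0.171). The 14548-base transcript ENSMUST00000146701.7 held 29.8% of the FPKM of Meg3 and, since FPKM divides by length, 83.3% of its fragments. The short ENSMUST00000126289.7 held 29.2% of the FPKM and 4.23% of the fragments. It was 37.9 ± 4.20 FPKM (SD, n = 4) in Ctrl and 30.4 ± 4.81 FPKM in LH mice without overlap, a log2 difference of -0.33 (SE 0.14) with a limma adjusted p of 0.432, and of -0.21 (SE 0.15, limma adjusted p = 0.592) without LH3 and LH4. ENSMUST00000129245.7, which starts where the annotated gene starts, was 33.1 ± 2.425 FPKM in HC and 27.0 ± 2.98 FPKM in Ctrl mice, with a limma adjusted p of 1. ENSMUST00000128458.2 ranged from 9.03 to 15.4 FPKM.

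A minor Meg3 transcript had the smallest limma p of the 44 in NLH vs. Ctrl and was picked for this. ENSMUST00000143272.7, of 5971 bases, held 3.08% of the sum. It was 6.64, 6.82, 2.83 and 6.54 FPKM in NLH mice, 7.09, 2.18, 3.15 and 5.94 FPKM in LH mice, 1.52, 2.19, 1.87 and 1.84 FPKM in Ctrl mice and 2.55, 3.51, 2.31 and 3.00 FPKM in HC mice. All NLH values were above all Ctrl values. The log2 difference was 1.499 (SE 0.34) in NLH vs. Ctrl, with a limma p of 0.000531 and an adjusted p of 0.35, and 1.13 (SE 0.34) in LH vs. Ctrl, with an adjusted p of 0.258. The latter was 1.06 (SE 0.42, limma adjusted p = 0.263) without LH3 and LH4.

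Rian, the host of small nucleolar RNAs, was at 112, 85.4, 95.6 and 104 FPKM in HC mice, and at 93.8, 102, 93.2 and 91.0 FPKM in Ctrl mice. It was at 111, 116, 103 and 93.4 FPKM in NLH mice and at 118, 111, 117 and 85.8 FPKM in LH mice. LH4 was the lowest LH mouse and below all Ctrl mice, while the other 3 were above all Ctrl mice. The log2 difference was 0.15 (SE 0.11) in NLH vs. Ctrl and 0.18 (SE 0.11) in LH vs. Ctrl, with exact permutation p-values of 0.0857 and 0.143. ENSMUST00000182981.7, the main transcript with 42.5% of the sum, was 51.2, 54.9, 49.9 and 44.9 FPKM in NLH mice against 34.8, 39.6, 40.6 and 37.1 FPKM in Ctrl mice. The groups did not overlap, and the log2 difference was 0.40 (SE 0.12), with a limma p of 0.00514, an adjusted p of 0.61 and an exact permutation p of 0.0286.

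The smallest adjusted p of the 44 transcripts, 0.132 by limma, was that of Rian ENSMUST00000182737.7 in LH vs. Ctrl. This 5-exon RNA of 699 bases was 10.6, 11.6, 21.5 and 17.0 FPKM in LH mice and 6.06, 7.21, 6.39 and 9.55 FPKM in Ctrl mice, without overlap. It was 11.2, 8.21, 8.27 and 8.81 FPKM in NLH mice and 12.6, 7.78, 10.8 and 8.995 FPKM in HC mice. The 2 highest values were those of LH3 and LH4. The log2 difference was 1.01 (SE 0.22) with all LH mice and 0.62 (SE 0.21, limma adjusted p = 0.19) without LH3 and LH4. ENSMUST00000181253.8, with 21.1% of the sum, ranged from 17.2 to 29.8 FPKM.

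Mirg, the microRNA host, was the lowest of the 7 by its named transcripts. Its sum was 4.13, 5.99, 4.18 and 6.14 FPKM in HC mice, 4.49, 5.05, 4.71 and 5.41 FPKM in Ctrl mice, 4.80, 4.35, 4.42 and 5.67 FPKM in NLH mice, and 4.19, 3.94, 4.85 and 5.22 FPKM in LH mice. The groups overlapped in all comparisons, and the differences were between -0.11 and -0.03 on the log2 scale, with standard errors of 0.15. ENSMUST00000182300.1, a 2-exon RNA of 694 bases at the 3′ end of the gene, held 82.3% of the sum, and ENSMUST00000181496.1 held 10.2%. Unnamed assembled transcripts held 58.6% of the FPKM at this locus, more than the named ones, against 30.1% at Meg3, 19.4% at Rian, 31.8% at Miat and 0% at Neat1 and Tug1. The mature microRNAs were not analysed here.

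Of the 44 transcripts 0 passed the adjusted limma threshold in any comparison, beside 0.00374%, 0.0125%, 0.0462% and 0.0412% of all transcripts in the 4 comparisons in the same order as above. At an unadjusted p under 0.05, limma placed 4, 4, 9 and 9 of the 44, beside 3.45%, 5.12%, 10.7% and 8.72% of all transcripts. In LH vs. Ctrl 4 of the 9 were higher and 5 were lower, beside 4.16% and 6.54% of all transcripts. In LH vs. NLH 3 were higher and 6 were lower, beside 2.98% and 5.74%. The split over all transcripts depended on scaling and mice. In LH vs. Ctrl it was 3337 higher and 5242 lower here, 4722 and 4846 with size factors, and 7681 and 3741 without LH3 and LH4. The groups did not overlap for 4, 4, 6 and 2 of the 44, beside 4.52%, 5.07%, 5.93% and 3.22% of all transcripts that varied. The equal-variance test gave 6, 6, 10 and 2 of the 44, beside 6.78%, 7.32%, 7.82% and 4.64%. Of the isoform shares 0 of the 44 passed the adjusted limma threshold, beside 0%, 0.00923%, 0.0351% and 0.0646% of the 54197 shares tested. A share that did not pass is not shown to be alike between groups. At an unadjusted p under 0.05 the numbers were 1, 3, 9 and 5 of the 44, beside 3.36%, 4.95%, 10.4% and 9.12%. Without LH2, 1 share passed the adjusted threshold in LH vs. Ctrl, beside 0.316% of all shares. Transcripts of 1 gene share fragments, so these are not independent of each other.

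Among the 21 pairs of the 7 genes, the log2 sums over the 16 mice were related past the adjusted threshold for Tug1 and Rian only. Pearson's r was 0.71 (permutation p = 0.00124, adjusted 0.026) and Spearman's rho was 0.67 (permutation p = 0.00557, adjusted 0.117). Without the 2 mice farthest from the median of Tug1, r was 0.68. With group means removed r was 0.68 with an adjusted permutation p of 0.278, and without the LH mice r was 0.78 with an adjusted permutation p of 0.058. Malat1 and Meg3 had an r of -0.21, and Meg3 and Rian, which lie in the same imprinted region, an r of -0.37. Of the same region, Meg3 and Mirg had an r of 0.51, and Rian and Mirg an r of -0.54. With size factors r was 0.68 for Tug1 and Rian and 0.46 for Malat1 and Meg3. It was then 0.018 for Meg3 and Rian, 0.74 for Meg3 and Mirg (adjusted permutation p = 0.0174), and 0.019 for Rian and Mirg. The negative values thus depended on the scaling.

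For each gene the 3 gene names with the most similar log2 sums over the 16 mice are given as a description, out of 10435 other names with a mean of at least 1 FPKM. They were Ppfia2, Mri1 and Snhg1 for Malat1 (r = 0.82, 0.78 and 0.77), and Crtc2, Camk2n2 and Gm37401 for Miat (0.92, 0.88 and 0.87). For Neat1 they were Brd8, Mrps14 and Cryzl1 (0.82, 0.79 and 0.77). For Meg3 they were Leng8, Snhg11 and Rtl1 (0.81, 0.81 and 0.79), of which Rtl1 is a paternally expressed gene of the same imprinted region. For Rian they were Dhx8, Tlk2 and Fancm (0.87, 0.87 and 0.86), and for Mirg Kri1, Prdm11 and Arid3b (0.73, 0.68 and 0.64). Tug1 had the highest values, with Pdzd8, Gmps and Kpna3 (0.95, 0.94 and 0.94). All points share the scaling of their library. The values were not recomputed without LH3 and LH4.

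The proteins and genes that act with these RNAs did not pass the adjusted threshold in any comparison either. The list of nuclear speckle proteins had 22 genes, all measured, of which 0 passed limma's adjusted threshold. With an unadjusted limma p under 0.05, 3 were higher and 1 was lower in LH vs. Ctrl, beside 7.03% and 4.49% of all gene names. In LH vs. NLH 4 were higher and 3 were lower, beside 2.75% and 4.79%. The latter shares are 502 higher and 876 lower gene names, and this split depended on scaling and mice. It was 1522 and 762 with size factors, and 2477 and 329 without LH3 and LH4. The median log2 differences of the list were 0.09 and -0.07. Its most abundant members, the splicing factors Srsf1, Srsf5 and Sf3b1, were at 36.3 ± 2.05, 31.3 ± 2.31 and 25.9 ± 1.32 FPKM in Ctrl mice (SD, n = 4) and at 42.1 ± 2.81, 36.9 ± 1.29 and 26.3 ± 1.89 FPKM in LH mice. In NLH mice they were at 34.04 ± 5.32, 35.9 ± 1.901 and 20.3 ± 3.85 FPKM, and in HC mice at 39.1 ± 3.15, 34.3 ± 1.43 and 20.7 ± 2.45 FPKM. Sf3b1 was thus lower in the means of HC and NLH mice than in those of Ctrl and LH mice, with unadjusted limma p-values of 0.0132 in Ctrl vs. HC, 0.0072 for NLH vs. Ctrl, then 0.0054 for LH vs. NLH. The adjusted p-values were 1, 0.608 and 0.466. Srsf1 had an unadjusted p of 0.00887 and an adjusted p of 0.507 in LH vs. NLH. The 1 lower gene, Srrm2, a large speckle protein, had the smallest p of the list and is named for this after its values were seen. It was 23.1 ± 1.65 FPKM in Ctrl, 18.5 ± 4.74 in NLH and 14.5 ± 1.51 in LH mice, a log2 difference of -0.67 (SE 0.14) in LH vs. Ctrl, with a limma adjusted p of 0.128.

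Of 18 paraspeckle proteins 16 were measured and 0 passed, and in LH vs. Ctrl 1 was higher and 1 was lower with an unadjusted limma p under 0.05, against the 7.03% and 4.49% of all gene names. In LH vs. NLH 0 were higher and 2 were lower, against 2.75% and 4.79%. Tardbp, an RNA-binding protein, was 28.8 ± 1.89 FPKM in Ctrl, 35.7 ± 3.11 in NLH and 36.3 ± 1.504 in LH mice (SD, n = 4), with limma adjusted p-values of 0.522 and 0.15 against Ctrl. Hnrnpk was at 116 ± 4.24 FPKM in Ctrl at 125 ± 18.2 in NLH and at 124 ± 19.4 in LH mice (SD, n = 4). Of the 4 splicing factors listed as partners of Miat, 0 passed limma's adjusted threshold. With an unadjusted p under 0.05, 1 was higher and 1 was lower in LH vs. Ctrl, and 2 were higher and 0 lower in LH vs. NLH, against the same shares of all gene names. The lower one was Sf1, the branch point factor, at 11.4 ± 1.53 FPKM in Ctrl, 10.4 ± 2.43 in NLH and 8.20 ± 2.89 in LH mice (SD, n = 4), a log2 difference of -0.53 (SE 0.24, limma adjusted p = 0.398). Qk was 21.6 ± 1.87 FPKM in Ctrl, 24.7 ± 3.61 in NLH and 29.7 ± 3.06 in LH mice (log2 difference 0.46, SE 0.11, limma adjusted p = 0.142), and Celf3 was 12.8 ± 1.57, 10.8 ± 3.27 and 9.60 ± 3.81 FPKM.

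Of 11 genes of Polycomb repressive complex 2, 9 were measured and 0 passed, and 2 were higher and 1 was lower in LH vs. Ctrl with an unadjusted limma p under 0.05, against the 7.03% and 4.49% of all gene names. Rbbp4, Ezh1 and Aebp2 were the most abundant, at 11.3 ± 0.60, 11.1 ± 0.55 and 9.49 ± 0.83 FPKM in Ctrl mice (SD, n = 4), at 11.4 ± 1.56, 11.3 ± 1.92 and 11.1 ± 1.09 FPKM in NLH mice, and at 11.2 ± 1.93, 12.5 ± 0.706 and 10.5 ± 2.85 FPKM in LH mice. Of 8 further genes of the Dlk1-Dio3 region, 6 were measured and 0 passed, and none had an unadjusted p under 0.05 in any comparison. Their median log2 difference in LH vs. Ctrl was -0.35, and Rtl1 was 2.99 ± 0.10 FPKM in Ctrl and 2.50 ± 0.47 FPKM in LH mice. Begain and Wars were 9.05 ± 0.706 and 8.25 ± 1.01 FPKM in Ctrl and 7.64 ± 2.93 and 8.41 ± 1.48 FPKM in LH mice. Of 22 other long noncoding RNAs known in brain 14 were measured and 0 passed. The most abundant were the small nucleolar RNA hosts Snhg11, Gas5 and Snhg14. Snhg11 was 88.3 ± 6.86 FPKM in Ctrl (SD, n = 4), 94.1 ± 4.44 in NLH and 89.1 ± 7.33 in LH mice. Gas5 was 24.9 ± 1.47 FPKM in Ctrl, 27.8 ± 4.85 in NLH and 21.2 ± 3.37 in LH mice, and Snhg14 was 18.9 ± 3.82, 14.1 ± 2.98 and 18.8 ± 3.18 FPKM, with log2 differences of -0.39 and 0.43 in LH vs. NLH that did not pass (limma adjusted p-values of 0.518 and 0.638). With an unadjusted limma p under 0.05, 1 of the 14 was higher and 2 were lower in LH vs. Ctrl, beside 7.03% and 4.49% of all gene names, and 2 were higher and 1 was lower in LH vs. NLH, beside 2.75% and 4.79%. The smallest p of the list was that of Dlx6os1 in LH vs. NLH, named after its values were seen. It was 4.15 ± 1.03 FPKM in LH mice, 2.44 ± 0.209 in NLH, 3.17 ± 0.674 in Ctrl and 2.43 ± 0.182 in HC mice, and the log2 difference in LH vs. NLH was 0.71 (SE 0.18, limma adjusted p = 0.299). Of the 38 protein-coding genes within 200 kb of the 7 genes 35 were measured and 0 passed, and in LH vs. Ctrl 1 was higher and 2 were lower with an unadjusted limma p under 0.05, against the same shares.

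Of 12 immediate early genes 11 were measured and 0 passed the adjusted limma threshold. In Ctrl vs. HC 3 were higher at an unadjusted limma p under 0.05, beside 1.61% of all gene names. Of these, Junb was 0.069 ± 0.080 FPKM (SD, n = 4) in Ctrl and 0 in HC, NLH and LH mice, under the added 0.1 FPKM. Fosb was also low, at 0.304 FPKM in HC and 0.675 FPKM in Ctrl mice. Arc, a neuronal activity gene, was 6.68 ± 1.15 FPKM in HC and 10.54 ± 2.24 FPKM in Ctrl mice (SD, n = 4, log2 difference 0.64, SE 0.17, limma adjusted p = 1). Egr1 and Bdnf were 5.90 ± 0.387 and 3.72 ± 0.356 FPKM in HC and 6.72 ± 0.980 and 3.82 ± 0.306 FPKM in Ctrl mice. Of 10 glucocorticoid response genes 9 were measured and 0 passed, with 3 higher in Ctrl vs. HC at an unadjusted p under 0.05. The most abundant, Mt2, Mt1 and Sgk1, were 65.6 ± 9.34, 50.7 ± 5.14 and 20.6 ± 2.52 FPKM in HC and 79.9 ± 9.19, 69.7 ± 6.85 and 24.6 ± 14.1 FPKM in Ctrl mice (SD, n = 4). The summed choroid plexus markers ranged from 2.57 to 98.1 FPKM over the LH mice and from 18.3 to 54.5 FPKM over the Ctrl mice, and those of striatum from 19.3 to 36.2 and from 22.9 to 26.3 FPKM. The part of these tissues in the values of the 7 genes was not tested.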

How the data were processed

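RNA-Seq FPKM values per transcript and mouse were used as deposited. The authors made them by alignment to mm10, transcript assembly and merging over all samples, and quantification with Cufflinks. The aligner is HISAT2 in the methods of the paper, while the submitters' processing notes list STAR 2.42a, with StringTie 1.2.3 for assembly. The FPKM values are not counts and were not scaled between mice, and whether the libraries kept strand is not given in the sources used here.

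FPKM were summed over all transcripts of a Gene_name. Limma 3.58.1 (R 4.3.3) modelled log2(FPKM + 0.1) by group, with 1 fit over the 16 mice and its trend and robust options on, for gene sums (18287), transcripts (80137) and isoform shares (54197, the log2 transcript level minus the log2 gene sum), with Benjamini-Hochberg adjustment over all of them and a threshold of 0.05. The added 0.1 FPKM understates changes of low transcripts. Single values were compared by two-sided exact permutation tests, which cannot go below p = 0.0286 with 4 mice against 4. Correlations used 100000 permutations over 21 pairs. Depth was estimated from the FPKM of 1962 loci with a single transcript of at least 2000 bases, taking fragments to be 200 bases long. Between 71.8% and 80.9% of these values came out as whole fragments to a tolerance of 0.1, where 20% is the share for random values, so counts were not recovered and no counting interval is given. Python 3.11.15 with numpy 2.4.6, pandas 2.3.3, scipy 1.17.1 and matplotlib 3.10.9 did the rest. The fits were tested on simulated data, where changes were recovered most often in gene sums, less often in transcripts and least often in isoform shares. Positions and sequences came from GENCODE vM21 (GRCm38) transcripts.

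The 7 genes and all lists were chosen with earlier results of these data known. By rule, every one of the 7 genes was named, a transcript was described if it held at least 10% of its gene's sum or passed the adjusted threshold, and of each list those that passed and at most 3 with the highest mean were named, of which 1 is not reported here. Mice that shared a number in the labels did not deviate together from their group means: over 24 such pairs the median r was -0.00835, and in 0 pairs it was over 0.1, so the number was not used as a pairing. Alternatives were added FPKM of 0.01 and 1, a mean of at least 1 FPKM, median-ratio size factors, only the 2 groups compared, sample weights, a replicate block, each mouse left out, unadjusted p, the equal-variance test named in the paper's methods, and only Ensembl transcripts. Locus sums, Malat1 without its 5′ transcript, the fits without LH3 and LH4, and exact tests on scaled or locus sums were added after seeing the data.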

Additional observations from a re-analysis of the deposited data

Results flagged for a closer look

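Of 98 groups of 4 mice checked, 5 held a mouse far from the other 3 by Dixon's criterion, which chance gives in about 1 of 20 groups. NLH1 was the lowest of the NLH mice for Miat, at 18.8 FPKM, the next being 21.1 FPKM. NLH1 was also the highest NLH mouse for Tug1 ENSMUST00000153313.8, at 12.0 FPKM with the next at 4.54 FPKM, and for Malat1 ENSMUST00000173499.1, at 661 FPKM with the other 3 at 0. LH2 was the highest LH mouse for Malat1 ENSMUST00000174808.1, at 1236 FPKM, the next being 738 FPKM. Ctrl2 was the highest Ctrl mouse for Meg3 ENSMUST00000146701.7, at 39.5 FPKM, the next being 33.9 FPKM. Of the 5, 3 were NLH1.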

How the results depend on the processing

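Of 732 log2 differences of the 7 genes recomputed under an alternative, 359 had the same value as reported, since alternatives such as the replicate block, the 2 groups alone or a mouse of another group left out do not change the 2 means, and so say nothing of the direction. Of the other 373, 353 kept their direction and their side of the threshold, 3 passed it (Tug1 in LH vs. Ctrl, given above) and 17 changed direction. Leaving out 1 mouse did this for Malat1 in NLH vs. Ctrl (range -0.10 to 0.029), Neat1 in LH vs. Ctrl (-0.060 to 0.092), Rian in Ctrl vs. HC (-0.13 to 0.00232) and in LH vs. NLH (-0.034 to 0.13), and Mirg in Ctrl vs. HC (-0.13 to 0.061), NLH vs. Ctrl (-0.12 to 0.012) and LH vs. NLH (-0.15 to 0.00037). Mirg in LH vs. NLH was 0.038 with size factors, and Malat1 without its 5′ transcript was -0.31 in LH vs. Ctrl and -0.14 against NLH. The cause was not tested. The number of the 7 genes past the threshold was 0 in each comparison, and in LH vs. Ctrl 1 with size factors, 1 with sample weights and 1 without LH3 and LH4. Unadjusted p gave 1, 1, 2 and 3 by limma and 1, 1, 1 and 2 by the equal-variance test, in the order Ctrl vs. HC, NLH vs. Ctrl, LH vs. Ctrl and LH vs. NLH. For transcripts unadjusted p gave 4, 4, 9 and 9 by limma and 6, 6, 10 and 2 by the equal-variance test, and for shares 1, 3, 9 and 5 by limma. Leaving out 1 mouse gave 0 to 2 transcripts in LH vs. Ctrl (2 without LH2), 0 to 1 in LH vs. NLH (1 without NLH1) and 0 to 1 shares in LH vs. Ctrl (1 without LH2). By the exact test 1 gene lay under 0.05 in LH vs. NLH, and 0 did with size factors or locus sums. Of the 21 correlations 1 passed, 0 with group means removed, 0 without the LH mice and 5 with size factors. With mouse numbers as a replicate block 0 genes, transcripts and shares passed in every comparison, and Miat in LH vs. Ctrl lay at -0.46 with an adjusted p of 0.21, so the block changed no call. The sums of Mirg and Neat1 rested on the fewest estimated fragments of the 7, 85 to 215 and 369 to 936 per mouse.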
